A study of Mus musculus with 12 samples.

Results

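Transcript levels of 9 genes were followed in mouse liver across the 3 groups of the study: 8 genes that encode proteins of neutrophil granules or the neutrophil cytosol, and Chi3l1, which encodes a secreted chitinase-like protein. The genes were chosen by name, and the values that led to their choice were the transcript levels of these same 6 mice, so that the levels below are a description and carry no test. Of 24910 genes in the expression table, summed over their RefSeq transcripts, these 9 are covered by 10 transcripts: S100a8 (NM_013650), S100a9 (NM_009114 and NM_001281852), Ngp (NM_008694), Camp (NM_009921), Ltf (NM_008522), Prtn3 (NM_011178), Elane (NM_015779), Mpo (NM_010824) and Chi3l1 (NM_007695).

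The livers came from wild-type male mice of the inbred strain C57BL/6J. Control mice were matched in age to the operated mice and had standard chow for 28 weeks and no surgery. Sham and VSG mice were started at 8 weeks of age on a high-fat diet with 60% of its calories from fat, were operated after 14 weeks, took liquid food for 4 days and returned to the high-fat diet for 14 weeks. In VSG (vertical sleeve gastrectomy) mice about 80% of the stomach was removed, and in Sham mice the stomach was isolated and put under pressure but left whole. Diet and surgery therefore differ together between Control and Sham mice, and by design the resection is what differs between Sham and VSG mice. RNA-seq and FAIRE-seq (an assay that enriches DNA free of nucleosomes, or accessible chromatin) each covered 2 mice per group. By the paper's methods, both assays used the same livers. RNA levels are given as FPKM, fragments per kilobase of transcript scaled to the number of mapped fragments, which can be compared between genes because the length of the transcript is divided out. The depth in reads is unknown, but low FPKM values come in steps of 1 read, and the size of the steps put the mice between 0.676 and 1.56 times the depth of Control mouse 1.

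Neutrophils pack antimicrobial proteins into granules as they mature in the bone marrow. Azurophil granules, filled first, hold myeloperoxidase and serine proteases, specific granules, filled later, hold lactoferrin and the cathelicidin precursor, and the calgranulins lie in the cytosol. The transcripts follow the same order, so that azurophil genes are read mainly in progenitors while calgranulin transcripts stay abundant in circulating cells. In liver, neutrophils are few in health and are recruited by inflammation, and Chi3l1 is also made by macrophages and other cells. In whole liver, more cells of a type and more RNA per cell cannot be told apart.

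The 9 genes lie on 5 chromosomes of NCBIM37 (mm9), in which all positions below are given. S100a8 (chr3:90472993-90473956, plus strand) and S100a9 (chr3:90496554-90499643, minus strand) are neighbours 22597 bp apart. Prtn3 (chr10:79337221-79345919) and Elane (chr10:79349057-79350961) lie 3137 bp apart on the plus strand. Camp (chr9:109749889-109751970, minus strand), Ngp (chr9:110322254-110325514) and Ltf (chr9:110921796-110945270) are spread over 1 stretch of chromosome 9, with 570283 bp between Camp and Ngp and 596281 bp between Ngp and Ltf. Mpo (chr11:87607083-87617915) and Chi3l1 (chr1:136078753-136086758) lie apart from the rest of the 9. Mpo overlaps Gm11505 and Prtn3 overlaps BC005764, both on the minus strand. The annotated Prtn3 gene reaches further upstream than its RefSeq transcript, which starts at 79342412.

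The 250 bases before the start of the RefSeq transcript were read for each of the 9 genes from RefSeq promoter sequences, all of which matched mm9 exactly. They are shown for the genes on which accessible sites or shared levels bear. In Chi3l1 and Elane a FAIRE peak covered the start of the gene. Ngp and Ltf, from specific granules, and S100a8 were highest in both Sham mice. Capitals mark the letters TTGCNNAA, a pattern like those that C/EBP factors bind, and GAGGAA, a core of sites for PU.1, with matches on the opposite strand capitalised as they read here. Both factors are needed for granulocytes to form. The windows are chr1:136078483-136078732 (plus) for Chi3l1, chr10:79348807-79349056 (plus) for Elane, chr3:90472743-90472992 (plus) for S100a8, chr9:110322062-110322311 (plus) for Ngp and chr9:110921546-110921795 (plus) for Ltf.
Chi3l1: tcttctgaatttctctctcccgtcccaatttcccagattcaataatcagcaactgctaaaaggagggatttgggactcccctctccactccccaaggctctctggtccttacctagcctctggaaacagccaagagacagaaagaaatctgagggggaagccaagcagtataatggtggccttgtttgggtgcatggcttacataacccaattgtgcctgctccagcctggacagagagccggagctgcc
Elane: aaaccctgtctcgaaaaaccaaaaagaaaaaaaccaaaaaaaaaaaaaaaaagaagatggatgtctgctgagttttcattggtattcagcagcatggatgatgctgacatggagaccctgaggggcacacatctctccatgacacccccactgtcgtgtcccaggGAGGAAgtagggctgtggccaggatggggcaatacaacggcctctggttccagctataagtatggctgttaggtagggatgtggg
S100a8: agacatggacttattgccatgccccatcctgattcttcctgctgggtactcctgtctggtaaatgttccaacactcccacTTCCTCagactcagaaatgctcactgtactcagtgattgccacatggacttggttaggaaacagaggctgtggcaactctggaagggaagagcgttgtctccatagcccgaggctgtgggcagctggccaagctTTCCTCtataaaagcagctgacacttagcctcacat
Ngp: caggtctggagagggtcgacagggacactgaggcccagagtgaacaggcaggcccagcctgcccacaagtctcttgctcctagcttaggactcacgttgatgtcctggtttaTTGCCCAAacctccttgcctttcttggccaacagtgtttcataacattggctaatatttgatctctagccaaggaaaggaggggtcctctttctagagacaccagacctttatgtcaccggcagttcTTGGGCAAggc
Ltf: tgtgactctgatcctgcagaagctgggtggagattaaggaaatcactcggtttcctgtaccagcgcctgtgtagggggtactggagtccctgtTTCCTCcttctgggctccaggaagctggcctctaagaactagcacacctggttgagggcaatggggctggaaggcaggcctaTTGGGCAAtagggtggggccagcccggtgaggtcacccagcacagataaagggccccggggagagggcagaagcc

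GAGGAA, searched for on both strands, was found in 5 of the 9 windows (S100a8, Ltf, Prtn3, Elane and Mpo), and 23.3% of 32851 RefSeq promoter windows of this length hold it. Prtn3 and Elane carry it at nearly the same place, 95 and 85 bases before the start, on the plus strand. TTGCNNAA was found in 3 of the 9 windows (S100a9, Ngp and Ltf), against 9.56% of the 32851 windows, and Ngp has 2 copies, at 138 and 11 bases before the start. The Chi3l1 and Camp windows held neither pattern. Ltf alone held both. A match of letters is a description of the window and no evidence that a factor binds there.

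The calgranulins S100a8 and S100a9, calcium-binding proteins that pair with each other and are the most abundant proteins of the neutrophil cytosol, were the only genes of the set, besides Prtn3, with an FPKM above 1 in the Control mice. S100a8 was listed at 6.94 and 2.25 in the Control mice, at 21.6 and 23.2 in the Sham mice and at 11.2 and 7.74 in the VSG mice. The groups did not overlap, with Sham highest, VSG between and Control lowest, and the Sham mice were the closest to each other. The means were 4.59 ± 3.31 in the Control mice, 22.4 ± 1.12 in the Sham mice and 9.46 ± 2.43 in the VSG mice (SD, n = 2), so that the Sham mean was 4.88 times the Control mean and the VSG mean 0.422 times the Sham mean.

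S100a9 was listed at 5.40 and 2.66 in the Control mice, at 18.2 and 19.9 in the Sham mice and at 9.43 and 8.40 in the VSG mice. It kept the order of S100a8 in the groups, again with no overlap. The Sham mean of 19.0 ± 1.19 was 4.73 times the Control mean of 4.03 ± 1.94, and the VSG mean of 8.91 ± 0.727 was 0.468 times the Sham mean (SD, n = 2). The ratio of S100a8 to S100a9 lay between 0.847 and 1.28 in the 6 mice, so that the partners were present at similar levels per length in each liver. The split between the 2 isoforms of S100a9 was uneven, since NM_009114 was listed at 0 in Control mouse 1 and at 11.1 in Sham mouse 1, where NM_001281852 stood at 5.40 and 7.06. The sum over both isoforms was therefore used for S100a9.

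On the log2(FPKM + 1) scale, on which the change of genes with low values is understated, S100a8 was higher in Sham than Control mice by 2.20 (standard error 0.47, from a limma fit of all genes) and S100a9 by 2.05 (0.32). Between Sham and VSG mice the differences were −1.18 for S100a8 and −1.02 for S100a9. The same standard errors hold in each comparison, since 1 fit gave them all, and the comparisons share groups and are not independent of each other. Leaving out 1 mouse moved S100a8 between VSG and Control from 1.02 to 0.38 without Control mouse 2, and to 1.67 without Control mouse 1. S100a9 over the same comparison stood at 1.03, with 0.63 without Control mouse 2.

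**Figure D1:**
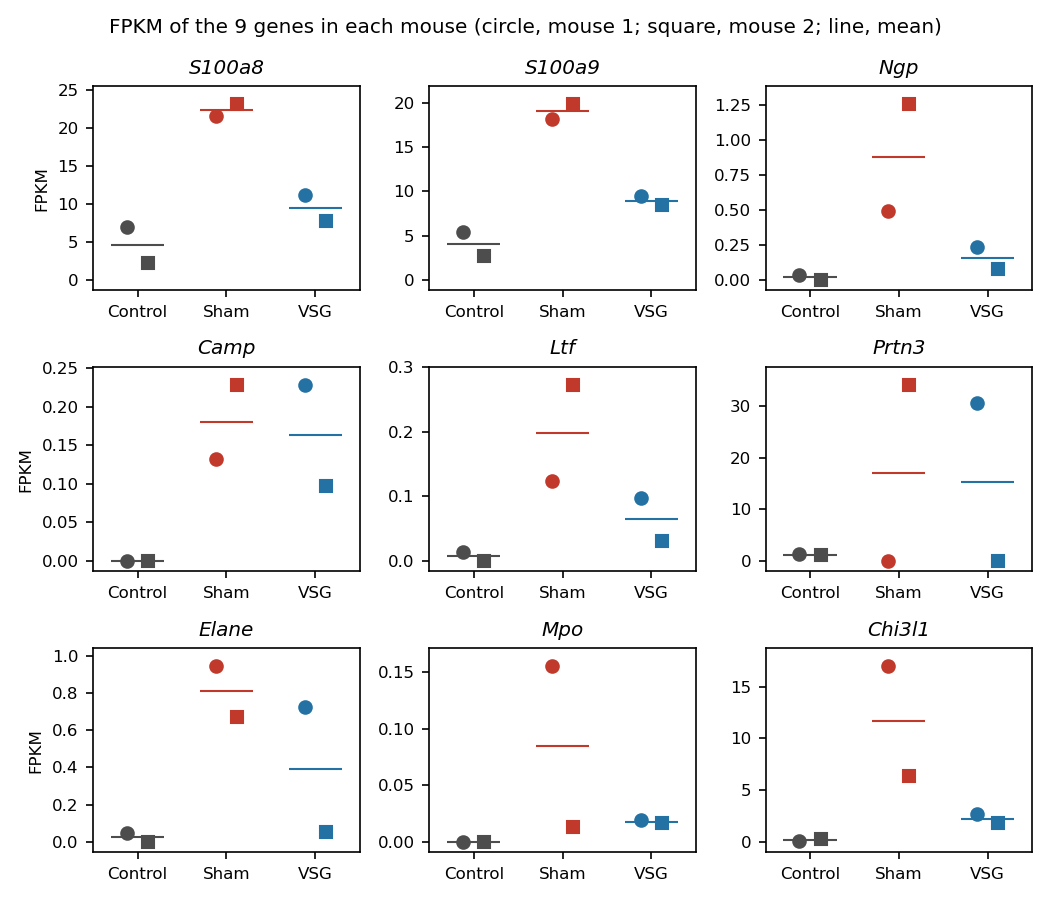
FPKM (vertical axis, linear, a separate scale for each gene) of the 9 genes in the 2 Control, 2 Sham and 2 VSG mice, with circles for mouse 1, squares for mouse 2 and a line at the mean. S100a8, S100a9, Ngp, Ltf and Chi3l1 keep the order Sham, VSG, Control without overlap, whereas Prtn3 is high in 1 Sham and 1 VSG mouse only.

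The genes of specific granules, Ngp, Camp and Ltf, were listed at low FPKM and rested on few reads. For genes with 1 transcript the FPKM of the 6 mice came out as whole numbers of reads once the relative depth was allowed for, within 0.0007 of a read for all 8 such genes, taking the smallest numbers that fit. Ngp, the neutrophilic granule protein and a relative of the cystatins, was listed at 0.0368 and 0 in the Control mice (1 and 0 reads), at 0.491 and 1.26 in the Sham mice (9 and 40 reads) and at 0.236 and 0.0801 in the VSG mice (10 and 2 reads). The Sham mice were the highest and the Control mice the lowest, with no overlap. The VSG mean of 0.158 ± 0.111 was 0.181 times the Sham mean of 0.875 ± 0.543 (SD, n = 2). A limit of 3 reads was set for a count of 0, without a stated confidence. In Control mouse 2 these 3 reads correspond to an FPKM of 0.133, above the level in VSG mouse 2. No fold against the Control mice is given for that reason. This limit covers counting error only.

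Ltf encodes lactoferrin, the iron-binding protein of specific granules, and had the same order of groups as Ngp. Its levels were 0.0139 and 0 in the Control mice (1 and 0 reads), at 0.123 and 0.273 in the Sham mice (6 and 23 reads) and at 0.0980 and 0.0302 in the VSG mice (11 and 2 reads). The groups did not overlap, and the VSG mean was 0.324 times the Sham mean. Here 3 reads in Control mouse 2 correspond to 0.05, so that both Sham mice and VSG mouse 1 lay above that limit and VSG mouse 2 below it.

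Camp encodes the precursor of cathelicidin, an antimicrobial peptide cut out by serine proteases. Its FPKM was 0 in both Control mice, at 0.132 and 0.229 in the Sham mice (1 and 3 reads) and at 0.229 and 0.0970 in the VSG mice (4 and 1 reads). The whole set of 6 mice thus held 9 reads of Camp. With 3 reads, the Control mice would have stood at 0.268 and 0.321, above every value listed, and a difference in Camp was not detectable at this depth.

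The azurophil genes Elane, Prtn3 and Mpo did not share 1 pattern. Elane encodes neutrophil elastase, a serine protease. Its levels were 0.0492 and 0 in the Control mice (1 and 0 reads), at 0.947 and 0.673 in the Sham mice (13 and 16 reads) and at 0.726 and 0.0535 in the VSG mice (23 and 1 reads). Both Sham mice and VSG mouse 1 were high, and VSG mouse 2 was close to the Control mice. The Sham mean was 0.810 ± 0.194 and the VSG mean 0.390 ± 0.476 (SD, n = 2), and these groups overlapped. Both Sham mice and VSG mouse 1 lay above 0.177, to which 3 reads in Control mouse 2 correspond.

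Mpo encodes myeloperoxidase, the enzyme that makes hypochlorous acid and the most abundant azurophil protein. Its FPKM was 0 in both Control mice, at 0.156 and 0.0129 in the Sham mice (7 and 1 reads) and at 0.0193 and 0.0164 in the VSG mice (2 and 1 reads). Of its 11 reads 7 lay in Sham mouse 1, the mouse with the lowest depth. The level there was above 0.0451 and 0.0542, to which 3 reads in the Control mice correspond, and the other 3 values were below both.

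Prtn3 encodes proteinase 3, the closest relative of elastase in these granules. Its FPKM was 1.33 and 1.11 in the Control mice (29 and 20 reads), at 0 and 34.2 in the Sham mice (0 and 869 reads) and at 30.6 and 0 in the VSG mice (1036 and 0 reads). Sham mouse 2 and VSG mouse 1 were thus high, the Control mice were low and alike, and Sham mouse 1 and VSG mouse 2 were listed at 0. The group means of 17.1 ± 24.2 in the Sham mice and 15.3 ± 21.6 in the VSG mice (SD, n = 2) carry errors larger than themselves. Its neighbour Elane was likewise high in VSG mouse 1 and low in VSG mouse 2, but was high in both Sham mice. Per length, Prtn3 stood at 50.8 times Elane in Sham mouse 2 and at 42.1 times in VSG mouse 1, and was listed at 0 beside 13 reads and 1 read of Elane in Sham mouse 1 and VSG mouse 2.

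An FPKM of 0 in the table can be a failed estimate, since Apob, a gene that every hepatocyte reads at a high level, was listed at 0 in Sham mouse 1 and between 196 and 371 in the other 5 mice. The zeros of Prtn3 were set beside the authors' mean normalized counts. The authors' mean of Prtn3 was 199 over the Control and Sham mice and 346 over the Sham and VSG mice. The reads recovered here, with the zeros left as 0, would give 184 and 373, so that the ratio of the authors' mean to this one was 1.08 and 0.927. Over 922 recovered genes of the Control and Sham mice that ratio had a median of 0.966 and a central 90% from 0.202 to 1.56, and for S100a8 it was 0.681, so that the recovered reads and the authors' counts are not the same count. On the log2(FPKM + 1) scale Prtn3 was 1.42 higher in Sham than Control mice with a standard error of 2.27, and without Sham mouse 2 the difference was −1.15. Between VSG and Sham mice it was −0.08, against 2.41 without VSG mouse 2 and 2.49 without Sham mouse 2.

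Chi3l1 encodes a chitinase-like protein that binds chitin without cutting it and is released in inflamed and fibrotic tissue. It was listed at 0.0949 and 0.228 in the Control mice (4 and 8 reads), at 17.0 and 6.35 in the Sham mice (485 and 313 reads) and at 2.65 and 1.78 in the VSG mice (174 and 69 reads). All 3 groups stood apart, and the ratio of the Sham to the Control mean was the largest among S100a8, S100a9, Prtn3 and Chi3l1, the genes that passed the filter used for the fit below. The Sham mean of 11.7 ± 7.56 was 72.4 times the Control mean of 0.161 ± 0.0941, and the VSG mean of 2.22 ± 0.615 was 0.189 times the Sham mean and 13.7 times the Control mean (SD, n = 2). On the log2(FPKM + 1) scale the difference was 3.31 between Sham and Control, −1.85 between VSG and Sham, and 1.46 between VSG and Control mice (standard error 0.48). Sham mouse 1 decided part of it, since without that mouse the difference between VSG and Sham was −1.21. Unlike S100a8, S100a9, Ngp, Camp and Ltf, Chi3l1 was higher in Sham mouse 1 than in Sham mouse 2, as were Elane and Mpo.

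Counted over the 9 genes, both Sham mice lay above both Control mice for 8, all but Prtn3, and both VSG mice lay above both Control mice for the same 8. Of the 17460 genes with an FPKM above 0 in at least 1 mouse, 23.3% had both Sham mice above both Control mice and 29.9% had both VSG mice above both Control mice. Both VSG mice lay below both Sham mice for 5 of the 9 (S100a8, S100a9, Ngp, Ltf and Chi3l1), against 9.7% of the 17460. These 5 also kept the full order of Sham above VSG above Control, which 1.93% of the 17460 genes kept. With each mouse scaled by its median ratio, Elane changed place, so that 7 genes had both VSG mice above both Control mice and 6 had both VSG mice below both Sham mice. Since the genes were chosen on these values, the counts describe them, and nothing is read from the distance to the other genes. For Camp and Mpo the counts rest on 1 to 7 reads in a mouse. Between VSG and Control mice, Ngp, Ltf and Elane rest on 2, 2 and 1 reads in VSG mouse 2. Control mouse 1 had 1 read of each. These levels in VSG mouse 2 lay below those that 3 reads would give in either Control mouse.

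**Figure D2:**
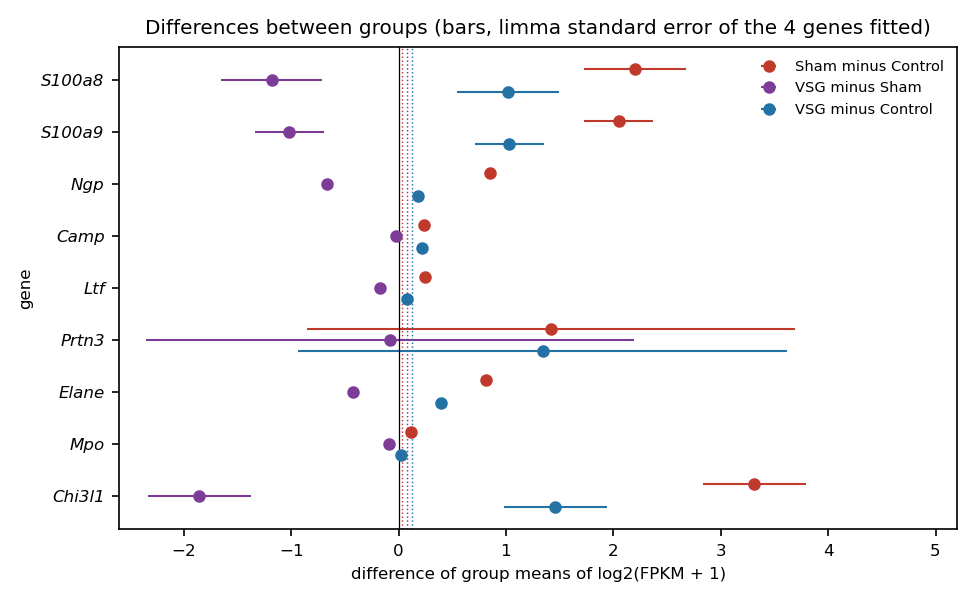
Difference between group means of log2(FPKM + 1) (horizontal axis) for each of the 9 genes (vertical axis) in the 3 comparisons, with limma standard errors as bars for the 4 genes that entered the fit and dotted lines at the median of all 9869 genes fitted. Chi3l1 lies farthest out, at 3.31 between Sham and Control mice, and the bars of Prtn3 are the widest. The bars are no test, since the genes were chosen on these values.

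Over all 9 genes the median difference on the log2(FPKM + 1) scale was 0.85 between Sham and Control mice (from 0.11 for Mpo to 3.31 for Chi3l1), −0.42 between VSG and Sham mice (from −1.85 to −0.02, Camp) and 0.40 between VSG and Control mice. Over the 9869 genes that reached an FPKM of 1 in 2 or more mice, the medians were 0.04, 0.08 and 0.12. Scaling each mouse by the median ratio to the other mice took the last of these from 0.12 to −0.0033 and left the 9 genes at 0.37. Only S100a8, S100a9, Prtn3 and Chi3l1 of the 9 passed that minimum. The calgranulins reached it in every mouse, and Chi3l1 passed through the Sham and VSG mice alone. At a false discovery rate (FDR) of 10%, limma called 28 genes (0.284% of those tested) between Sham and Control, 5 (0.0507%) between VSG and Sham and 28 (0.284%) between VSG and Control mice, with 1076, 479 and 943 at an unadjusted p under 0.05.

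The higher mouse of each group was compared across the 9 genes. In VSG mice all 9 were higher in mouse 1 than in mouse 2. In Control mice 6 were higher in mouse 1, 1 (Chi3l1) was higher in mouse 2, and Camp and Mpo were listed at 0 in both. In Sham mice 6 were higher in mouse 2 and 3 (Elane, Mpo and Chi3l1) in mouse 1. In the VSG mice Mpo rested on 2 and 1 reads and Camp on 4 and 1. The share of all genes that were higher in mouse 1 was not counted, so nothing is read from these counts.

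The accessible sites come as 1 list per group, each made of the peaks shared by the 2 mice of the group, so that they have no error from replicates and could not be tested. Like signals fall at different percentiles of the lists, so the percentile within a list is given beside the signal. The start of Chi3l1 was covered by a peak in the Sham list (chr1:136078669-136079057, F-seq signal 0.317, percentile 36.4 of its list) and in the VSG list (chr1:136078706-136079036, signal 0.218, percentile 29.4). The Control list had no peak over the start, and its nearest peak lay 6261 bp beyond the end of the gene. A peak over the start in the Sham and VSG lists and not in the Control list was found for 269 of 22367 protein-coding genes (1.2%). A second site before Chi3l1, 8792 bp from the gene in the Control list, was present in all 3 lists, with a signal of 0.150 in Control (percentile 9.6), 0.601 in Sham (70.2) and 0.420 in VSG mice (67.3). With the 50% of peaks with the highest signal in each list, the peak at the start of Chi3l1 was not kept in either list. A missing peak says that no site passed in both mice of the group, not that the site was closed.

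The start of Elane was covered in all 3 lists, at chr10:79348934-79349598 in Control (signal 0.406, percentile 75.4), chr10:79348935-79349324 in Sham mice (0.924, percentile 87.6) and chr10:79348944-79349291 in VSG mice (0.441, percentile 69.5). The site was thus listed in Control livers, in which Elane had 1 read in the 2 RNA libraries. Prtn3 had no peak over the start of its RefSeq transcript but 1 inside the transcript in each list, which in the Control list was chr10:79343548-79343940. A peak over the start was found for 1 of the 9 genes in the Control list and for 2 in the Sham and VSG lists, against 40.4%, 40.8% and 41.5% of the 22367 protein-coding genes. Within 5 kb, 2 of the 9 genes had a peak in the Control list (Prtn3 and Elane) and 3 in the Sham and VSG lists (with Chi3l1), against 62.9%, 65.4% and 63.9% of those genes.

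The other 6 genes, S100a8, S100a9, Ngp, Camp, Ltf and Mpo, had no peak within 5 kb in any list. The site nearest to S100a8 lay 15893 bp away in the Sham list and 15895 bp away in the Control list. The site nearest to Ngp lay 7896 bp away in Sham, 7901 bp in Control and 7954 bp in VSG mice. The calgranulins, with the highest RNA levels of the set in Control mice, were thus without a listed site at their starts in every group.

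**Figure D3:**
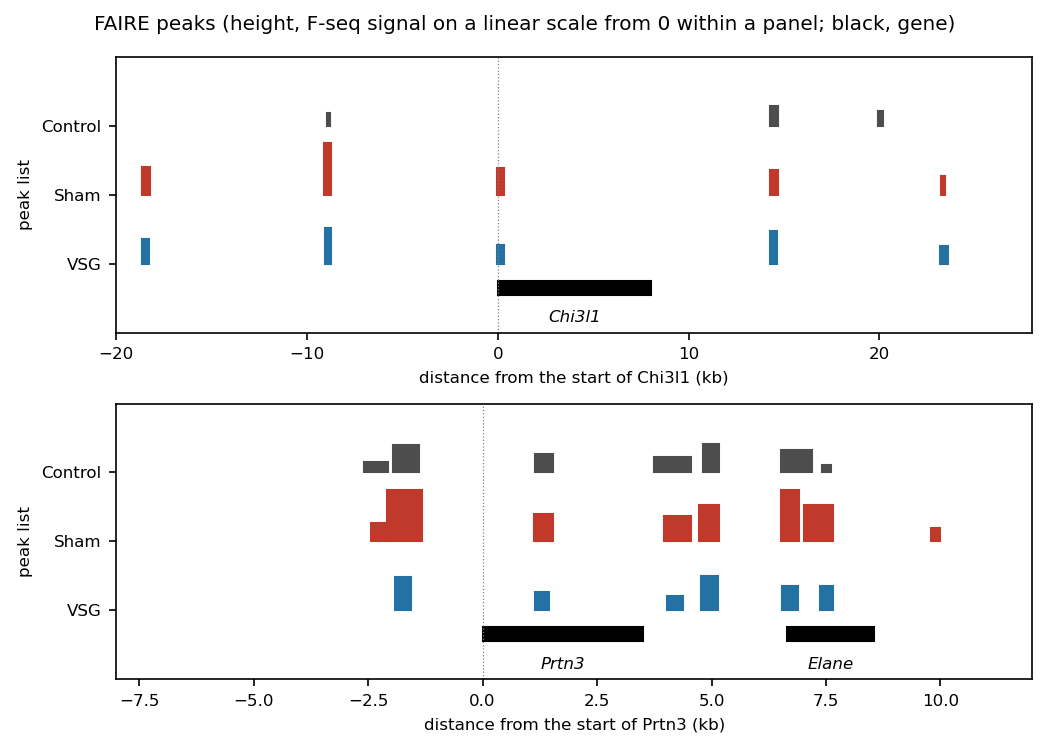
FAIRE peaks of the Control, Sham and VSG lists around Chi3l1 (upper panel) and around Prtn3 and Elane (lower panel), by distance from the start of the RefSeq transcript in kb, with the height of a bar proportional to the F-seq signal on a scale shared within a panel and the genes in black. A bar stands at the start of Chi3l1 in the Sham and VSG lists but not in the Control list, and at the start of Elane in all 3. Heights cannot be compared between lists. A signal of 0.317 at the start of Chi3l1 was percentile 36.4 of the Sham list, and 0.328 inside Prtn3 was percentile 65.1 of the Control list.

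Other genes of granules, of neutrophils and of the cells that could accompany them were read from lists. In all, 194 genes besides the 9 were in the table, 177 of them above 0 in at least 1 mouse and 86 tested. At an FDR of 10% limma called 1 of the 86 between Sham and Control mice, 0 between VSG and Sham mice and 1 between VSG and Control mice, with 27, 11 and 24 at an unadjusted p under 0.05. The called gene was Tat, the tyrosine aminotransferase of hepatocytes, in both comparisons and lower in the mice on the high-fat diet. It was listed at 1376 and 1477 in Control mice, at 210 and 188 in Sham mice and at 233 and 283 in VSG mice, with a log2 difference of −2.84 between Sham and Control mice (adjusted p = 0.0445, limma) and −2.47 between VSG and Control mice (adjusted p = 0.0679, limma). The call between Sham and Control mice was lost without either Control mouse (adjusted p = 0.3004 and 0.484, limma), and the call between VSG and Control mice without any 1 of the 4 mice compared (adjusted p from 0.202 to 0.564, limma). The median difference of the 86 genes was 0.46, −0.05 and 0.45 in the 3 comparisons. Of the 177 genes, both Sham mice lay above both Control mice for 82, against 23.3% of the 17460 genes. Both VSG mice lay below both Sham mice for 34, against 9.7%, and above both Control mice for 91, against 29.9%. The lists were chosen with earlier results of these data known, so nothing is read from the distance to all genes, here or in the counts by list below.

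Among 14 other genes of specific and gelatinase granules in the table, 13 were above 0 and both Sham mice lay above both Control mice for 11. The 3 with the highest mean were Hp, Lcn2 and Cyba. Lcn2, which encodes an iron-siderophore-binding protein made in neutrophils and, in inflammation, by hepatocytes, was listed at 154 and 109 in Control mice, at 1932 and 5279 in Sham mice and at 2069 and 214 in VSG mice. Hp, haptoglobin, is likewise made by hepatocytes and stood at 5340 and 5572 in Control mice, at 14410 and 22141 in Sham mice and at 11080 and 4459 in VSG mice. Cyba, a subunit of the phagocyte oxidase, was also higher in both Sham than both Control mice but had its highest value, 18.6, in VSG mouse 2. In 7 other azurophil genes, of which Cd63, Lyz2 and Ctsc had the highest means, both Sham mice lay above both Control mice for 3. Bpi was listed at 0 in all mice. Ctsg, the gene of cathepsin G, was listed at 0 in the Control and VSG mice and at 0.0657 and 0.0759 in the Sham mice.

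Defining surface markers of neutrophils were low or listed at 0. Ly6g, Stfa1 and Hdc were listed at 0 in all 6 mice. Cxcr2, the chemokine receptor of mature neutrophils, lay between 1.002 and 1.25 in all 6 mice and did not follow the granule genes. Csf3r, the receptor of the growth factor G-CSF, was listed at 0.725 and 0.409 in Control, 0.715 and 0.216 in Sham and 0.794 and 0 in VSG mice. Over the 26 genes of neutrophil surface and signalling, led by Alox5ap, Itgb2 and Fpr1, the summed FPKM was between 5.89 and 9.87 in Control, between 15.4 and 17.4 in Sham and between 11.5 and 20.9 in VSG mice. Both Sham mice lay above both Control mice for 14 of the 23 above 0, and both VSG mice below both Sham mice for 4. Several of these genes are also read in macrophages.

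Genes of granulocyte progenitors were near 0 in every group. Of 9 such genes Cebpe, the factor that switches on specific granule genes, had the highest mean, all of it from an FPKM of 5.06 in Sham mouse 1, with 0 in the other 5 mice. Kit and Cd34 followed, with Kit lower in both Sham mice (0.116 and 0.0607) than in both Control mice (0.519 and 0.384). Both Sham mice lay above both Control mice for 3 of the 9 (Top2a, Mki67 and Myb) and below them for Kit alone. Among 11 transcription factors of granulopoiesis and the gene of G-CSF, Cebpa, Cebpb and Cebpd had the highest means, and Csf3 was listed at 0 in all mice. In 12 genes of neutrophil chemokines and adhesion, led by Cxcl12, Cxcl1 and Icam1, both Sham mice lay above both Control mice for 4.

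Relatives of the 9 genes were compared by family. In the chitinase family of 7 other genes, led by Chid1, Ctbs and Chil3, both Sham mice lay above both Control mice for 4, and Chit1 was listed at 0 in all mice. Chil3, a chitinase-like gene of myeloid cells, was listed at 0.132 and 0 in Control, 0.547 and 2.23 in Sham and 1.08 and 0.775 in VSG mice. In the S100 family of 14 other genes, led by S100a10, S100a1 and S100a11, this held for 4, among them S100a11 with 10.9 and 12.98 in Control, 78.4 and 114 in Sham and 69.2 and 28.0 in VSG mice. Of 6 relatives of the cathelicidin and cystatin genes, led by Ahsg, Kng1 and Fetub, it held for 2, and of 4 genes related to transferrin and its receptors, led by Lrp1, Tfrc and Meltf, for 1. Of 11 receptors of calgranulins and inhibitors of granule proteases, led by Serpina3n, Bsg and Cd36, it held for 7. One of these, Slpi, whose product inhibits elastase, stood at 0.157 and 0.315 in Control, 8.31 and 16.3 in Sham and 2.36 and 0.741 in VSG mice.

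Markers of other cells moved with the mice and not always with the 9 genes. Their part in the results was not tested. Erythroid markers, led by Hba-a1, Hbb-b1 and Hbb-b2, with Hba-a2 listed at 0 in all mice, had their highest summed FPKM in VSG mouse 2. The sums were 295 to 358 in Control, 155 to 386 in Sham and 448 to 1902 in VSG mice. B cell markers (5 genes, led by Cd79b and Cd79a) summed to 0.340 to 0.429 in the Control mice, 0.409 to 0.794 in the Sham mice and 1.31 to 3.06 in the VSG mice. Both VSG mice lay above both Sham mice for 4 of the 5, and none of the 5 reached the minimum for the fit. Of the 177 list genes above 0, 31 had both VSG mice above both Sham mice. The share over all genes was not counted, so nothing is read from such counts. T and NK cell markers (11 genes, led by Nkg7, Cd3g and Cd4) summed to 1.03 to 1.04 in Control, 1.06 to 2.81 in Sham and 1.86 to 3.72 in VSG mice. Both lists were highest in VSG mouse 2, as the Kupffer cell markers were. These 10 Kupffer genes, led by C6, Cd5l and Clec4f, summed to 123 to 137 in Control, 90.1 to 150 in Sham and 138 to 220 in VSG mice. C6, which hepatocytes also make, held most of this sum in the Control mice, and the other 9 genes summed to 20.7 and 15.2 in the Control mice, to 45.3 and 43.5 in Sham mice and to 44.04 and 177 in VSG mice. Of the 10, 6 had both Sham mice above both Control mice, and 2 had both VSG mice above both Sham mice.

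Of 11 monocyte and recruited macrophage markers, led by Fn1, Spp1 and Plac8, 8 had both Sham mice above both Control mice, and 4 had both VSG mice below both Sham mice. They summed to 223 to 275 in Control, 365 to 510 in Sham and 268 to 347 in VSG mice. Without Fn1 and Spp1, which held most of these sums, the other 9 summed to 7.01 and 5.31 in the Control mice, to 16.5 and 20.5 in Sham mice and to 10.5 and 12.3 in VSG mice. Megakaryocyte and platelet markers (6 genes, led by Pf4, Ppbp and Itga2b) summed to 0.924 to 1.57, 3.61 to 3.95 and 2.65 to 4.11. Eosinophil and mast cell markers summed to at most 0.0633 in any mouse, and 4 of the 8, Prg2, Cpa3, Cma1 and Mcpt4, were listed at 0 in all. The tissue was liver by its hepatocyte markers, led by Apoa1, Cyp2e1 and Ttr, which summed to between 11440 and 22510 in every mouse.

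**Figure D4:**
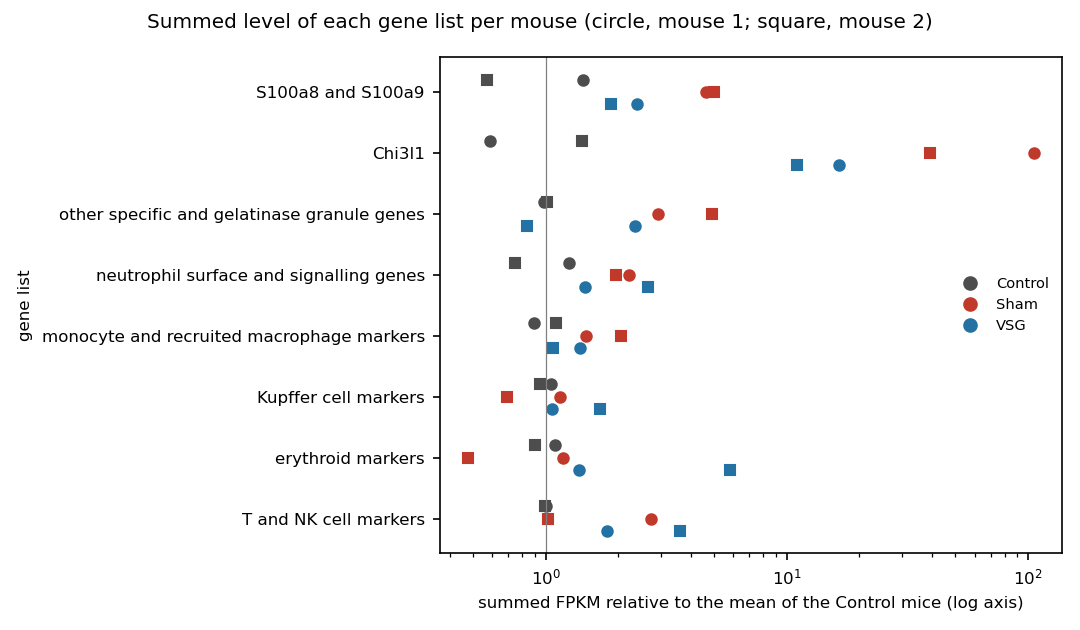
Summed FPKM of each gene list (vertical axis) in each mouse, relative to the mean of the 2 Control mice (horizontal log axis), with circles for mouse 1 and squares for mouse 2. S100a8 with S100a9, and Chi3l1, have Sham to the right of VSG, whereas VSG mouse 2 lies farthest right for Kupffer, erythroid and T and NK cell markers.

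Genes were ranked by how alike their levels over the 6 mice were to those of S100a8, S100a9, Prtn3 and Chi3l1, the 4 of the 9 that passed the filter, as Pearson's r with their mean standardised log2(FPKM + 1), among 9864 other genes. The first 10 were Gngt1 (r = 0.99), Pold4, Kif13a, Lsr, Wdsub1, Snhg18, Tbc1d31, Orm2, Lcn2 and Ambp (r = 0.98). With 6 mice and so many genes these values describe likeness in these livers, and the mice of a group share diet and surgery. Orm2, an acute phase protein made by hepatocytes, was listed at 178 and 180 in Control mice, at 4769 and 7138 in Sham mice and at 2248 and 538 in VSG mice. Ambp and Lsr are also genes of hepatocytes. The order of the mice in Orm2, with Sham highest, then VSG mouse 1, then VSG mouse 2, was that of S100a8 and S100a9. Over 12 acute phase genes in the table, led by Hp, Orm1 and Fgg, both Sham mice lay above both Control mice for 8 and both VSG mice below both Sham mice for 7.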

How the data were processed

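RNA-seq and FAIRE-seq of liver were made from 2 Control, 2 Sham and 2 VSG mice each. The authors aligned RNA reads to mm9 with TopHat2 and deposited an FPKM from Cufflinks for every RefSeq transcript and mouse. The labels give polyA RNA and the paper's methods depletion of ribosomal RNA. Peaks and their signal are the F-seq output that the authors deposited as 1 list per group, limited by IDR to peaks shared by both mice. The mean normalized counts in the authors' 2 DESeq2 tables were used as a check of Prtn3. The fold changes and p-values in these tables, and the lists of variable sites, were not used.

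The members and lists were chosen with earlier results of these data known. FPKM was summed per gene (34046 of 34933 transcripts matched a symbol), and log2(FPKM + 1) was fitted with limma 3.58.1 (R 4.3.3), with all 3 groups and a variance trend, for the 9869 genes that reached an FPKM of 1 in 2 or more mice, with Benjamini-Hochberg adjustment at an FDR of 10%. In simulated data limma recovered 99 of 200 genes changed by 2 (log2) among 9494, with 22 false calls. An exact permutation test of 2 mice against 2 reaches p = 0.333 at best and was not run. Nothing in the labels ties a mouse number to a litter or day.

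Whole reads were recovered by searching for the smallest numbers within 0.01 of a read, or within a small fixed share of the count where that was larger. Of 4271 low genes with 1 transcript 57.81% came out whole, too few for a count test. By the plan, named genes were the 9, each list gene called by limma, the 3 highest of each list and the 10 most alike. Further list genes were named outside this rule, with their values seen. They include Slpi, Cxcr2, Csf3r, Ctsg, Top2a, Mki67, Myb, Apob and genes listed at 0 in all mice. The lists covered other azurophil, specific and gelatinase granule genes, neutrophil surface, progenitor and granulopoiesis genes, chemokines, receptors and inhibitors, gene families, and markers of erythroid, Kupffer, monocyte, eosinophil and mast, B, T and NK, platelet and hepatocyte cells, and acute phase genes. One gene of the lists is not reported here. Sums of the Kupffer and monocyte lists without their most abundant genes were added after seeing the data. Genes and peaks were placed on NCBIM37 (mm9), with Python 3.11.15, numpy 2.4.6, pandas 2.3.3 and matplotlib 3.10.9.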

Additional observations from a re-analysis of the deposited data

How the results depend on the processing

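With a pseudocount of 0.1 in place of 1, the median difference of the 9 genes was 2.30 between Sham and Control, −1.09 between VSG and Sham and 1.21 between VSG and Control mice (log2 scale), which follows from the low values of most of the 9. Leaving out 1 mouse at a time gave medians of 0.55 to 1.15, −0.97 to −0.12 and 0.085 to 0.753. Single genes changed sign only when 1 mouse was left out: Prtn3 in all 3 comparisons, and Camp (0.06 and 0.04) and Mpo (0.01) between VSG and Sham mice. With the transcript of highest mean alone, S100a9 differed by −0.65 between VSG and Sham mice. Median ratio scaling changed the count of genes with both VSG mice above both Control mice from 8 to 7, and of those with both VSG mice below both Sham mice from 5 to 6, through Elane in both. Within 20 kb, 9, 9 and 8 of the 9 genes had a peak in the Control, Sham and VSG lists. A wider window cannot lower these counts, and the share over all genes at 20 kb was not counted.

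The number of genes limma called depended on the mice. Between Sham and Control mice it ranged from 0 to 157 with 1 mouse left out (0 without either Control mouse, 53 without Sham mouse 1), between VSG and Sham mice from 0 to 50 (0 without either VSG mouse, 34 without Sham mouse 1) and between VSG and Control mice from 0 to 11 (0 without either Control mouse, 6 without VSG mouse 2). Without a filter 64 genes were called between Sham and Control mice, and between VSG and Sham mice 8 were called with the pseudocount of 0.1 and 9 with transcripts one by one. With the mouse number as a replicate block, 9, 0 and 10 genes were called in the 3 comparisons, and Tat was not (adjusted p = 0.154 between Sham and Control and 0.234 between VSG and Control mice, limma). Without a filter Tat was not called between VSG and Control mice (adjusted p = 0.103, limma). The deviations of same-numbered mice correlated at 0.118 for Control and Sham, 0.0643 for Control and VSG and 0.0390 for Sham and VSG, so that the numbers were not taken as pairs. The causes of these changes were not tested.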
